A study of Homo sapiens with 15 samples.

Results

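The 10 genes of canonical Wnt signalling followed here in the RNA sequencing data of LNCaP cells were CTNNB1, TCF7L2, LEF1, AXIN1, AXIN2, LGR4, ZNRF3, RNF43, NKD1 and NKD2. They were chosen by name, as the central signalling protein, its DNA-binding partners and the feedback regulators, by a rule that holds no measured value. Earlier results of these data were known when they were chosen. All 10 had a row among the 17272 genes of the expression table. LNCaP, a line of human prostate cancer cells that respond to androgen, was kept before treatment for 2 days in medium with charcoal-stripped serum, which is poor in androgen. By the labels, 10 libraries are from cells that received the synthetic androgen R1881 at 1 nM with the solvent DMSO, and 5 libraries are from cells that received the same R1881 with enzalutamide, a drug that blocks androgen signalling. The labels mark the enzalutamide as high, and its dose of 2 µM is from the methods. All cells were therefore given the same androgen dose, no library without androgen enters the comparison, and RNA was collected after 22 h. All libraries are of a single cell line, and the methods call them biological replicates without saying whether they come from separate cultures, so that p-values measure the spread between these libraries.

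In Wnt signalling, secreted Wnt proteins bind Frizzled receptors and LRP coreceptors at the cell surface and stop the destruction complex, built on the axin scaffold, from degrading beta-catenin, the product of CTNNB1. Beta-catenin then enters the nucleus and acts with the DNA-binding factors of the TCF/LEF family. The pathway limits itself, since RNF43 and ZNRF3 are ubiquitin ligases that remove Frizzled receptors from the membrane, R-spondins bound to LGR receptors hold these ligases back, and AXIN2, NKD1, NKD2, RNF43 and ZNRF3 are known in many tissues as target genes of the pathway that dampen it.

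Against R1881 alone, RNF43 rose 2.46-fold in mean level with R1881 + enzalutamide, TCF7L2 rose 1.83-fold, NKD1 1.63-fold and LEF1 1.22-fold. AXIN1 fell to 0.796 and LGR4 to 0.871 of the mean level with R1881. CTNNB1, AXIN2 and ZNRF3 did not pass the test. The members thus moved in both directions. Levels are given as CPM, counts scaled by the authors by a rule that the sources used here do not give. Differences are log2 fold changes of R1881 + enzalutamide against R1881 on the log2(CPM + 0.5) scale, with the standard error (SE) and the adjusted p of limma. Of the 9 members with a mean CPM of at least 0.5, 6 were called at an adjusted p under 0.05, 4 higher and 2 lower. With library totals set to 1000000, 6 were higher and 1 lower. This has to be read against all genes, of which 62.5% of 17046 were called, 29.8% higher and 32.7% lower, so that a call alone does not set a gene apart in this comparison. Of the calls over all genes 47.7% were higher, and 60.7% with library totals set to 1000000. At least 2-fold changes were rarer, with 7.45% of all genes, 3.26% higher, and RNF43 was the single member among them.

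The androgen response of the cells was checked first on genes that androgen is known to induce. KLK3, which encodes prostate-specific antigen, was at 1588 ± 209 CPM (SD, n = 10) with R1881 and at 134 ± 7.66 CPM (n = 5) with R1881 + enzalutamide, and KLK2, TMPRSS2 and FKBP5 fell as well (log2 fold changes of -4.87, -3.56 and -4.99). The depth on genes was 15830745 to 25416052 reads in a library. The luminal epithelial markers were all present, with a summed level of 3950–4626 CPM in R1881 libraries and 2507–2643 CPM in enzalutamide libraries, of which 3 rose, KRT8 and KRT18 fell (-2.18 and -2.05) and CDH1 was not called. Of 7 endothelial and leukocyte markers only VWF had a row (2.08–2.84 and 2.84–3.35 CPM), and of 7 fibroblast and muscle markers 4 had rows, with sums of 30.1–38.2 and 56.6–64.1 CPM. All 8 proliferation markers fell (926–1150 and 531–616 CPM). These marker levels differed between the treatments, and their part in the results below was not tested. In bulk RNA, fewer cells of a kind and less RNA per cell cannot be told apart.

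The libraries carry running numbers in their labels, 51–55 and 71–75 with R1881 and 81–85 with R1881 + enzalutamide. No series holds both treatments, so treatment and series cannot be told apart. Between both R1881 series, 3.29% of genes (553 of 16810) and none of the 9 tested members were called by limma, and 2 members had an unadjusted p under 0.05. This count rests on single libraries and ranged from 56 to 969 genes when each R1881 library was left out in turn. Libraries also differed in a trend with the GC content of genes, strongest in R1881 replicates 6 and 10 and in enzalutamide replicate 2. The Spearman correlation of GC content with the deviation from the group mean was 0.74 in R1881 replicate 6 and 0.72 in enzalutamide replicate 2. In R1881 replicate 10 it had the opposite sign (-0.63).

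CTNNB1 was by far the most abundant member. It lies on chr3:41194741-41260096 (GRCh38, plus strand) and has 15 exons in its canonical transcript. With R1881 its level ran from 432 to 515 CPM with a median of 482 CPM, and with R1881 + enzalutamide it was 509, 455, 466, 471 and 489 CPM in replicates 1 to 5. Each of the 5 enzalutamide libraries lay inside the R1881 range. The group means were 479.5 ± 24.96 CPM and 478 ± 21.1 CPM, and the difference of -0.00 (SE 0.039) had a 95% interval from -0.08 to 0.08 and an adjusted p of 0.939. Its sign turned in 15 of 28 alternative settings, and with library totals set to 1000000 it was 0.09 with an adjusted p of 0.0314. The interval thus bounds a difference in CTNNB1 mRNA in the main setting only and does not cover the choice of scaling. These data say nothing on the amount or place of the protein, which is controlled by degradation. ULK4, on the opposite strand, overlaps the gene, and the sources used here do not say whether strand was used in counting.

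TCF7L2 encodes TCF4, a DNA-binding partner of beta-catenin, and lies on chr10:112950247-113167678 (plus strand, 15 exons). Its level with R1881 ran from 3.96 to 6.97 CPM with a median of 5.37 CPM, from 63 to 148 reads per library. With R1881 + enzalutamide it was 9.45, 10.8, 9.96, 9.66 and 9.76 CPM. All 5 enzalutamide libraries lay above the highest R1881 library, and the gap between the groups was wider than the spread within the enzalutamide group. The log2 fold change was 0.83 (SE 0.099, adjusted p = 2.89e-07), which exceeded in size that of 89.3% of genes. Against the R1881 libraries 51–55 alone it was 0.71 and against 71–75 alone 0.95. LEF1, the second factor of the family among the members, lies on chr4:108047545-108168956 (minus strand, 12 exons). Its level was 3.97–5.93 CPM with R1881 (median 5.20 CPM) and 5.26, 6.23, 6.004, 6.78 and 6.23 CPM with R1881 + enzalutamide. Of the 5 enzalutamide libraries 4 were above every R1881 library and replicate 1 fell inside the range. The log2 fold change of LEF1 was 0.27 (SE 0.091, adjusted p = 0.0150), and without enzalutamide replicate 4 the call was lost (0.23, adjusted p = 0.0518). Within a library, the ratio of TCF7L2 to LEF1 ran from 0.872 to 1.29 with R1881 and from 1.42 to 1.80 with R1881 + enzalutamide, so that these ranges did not overlap.

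**Figure D1:**
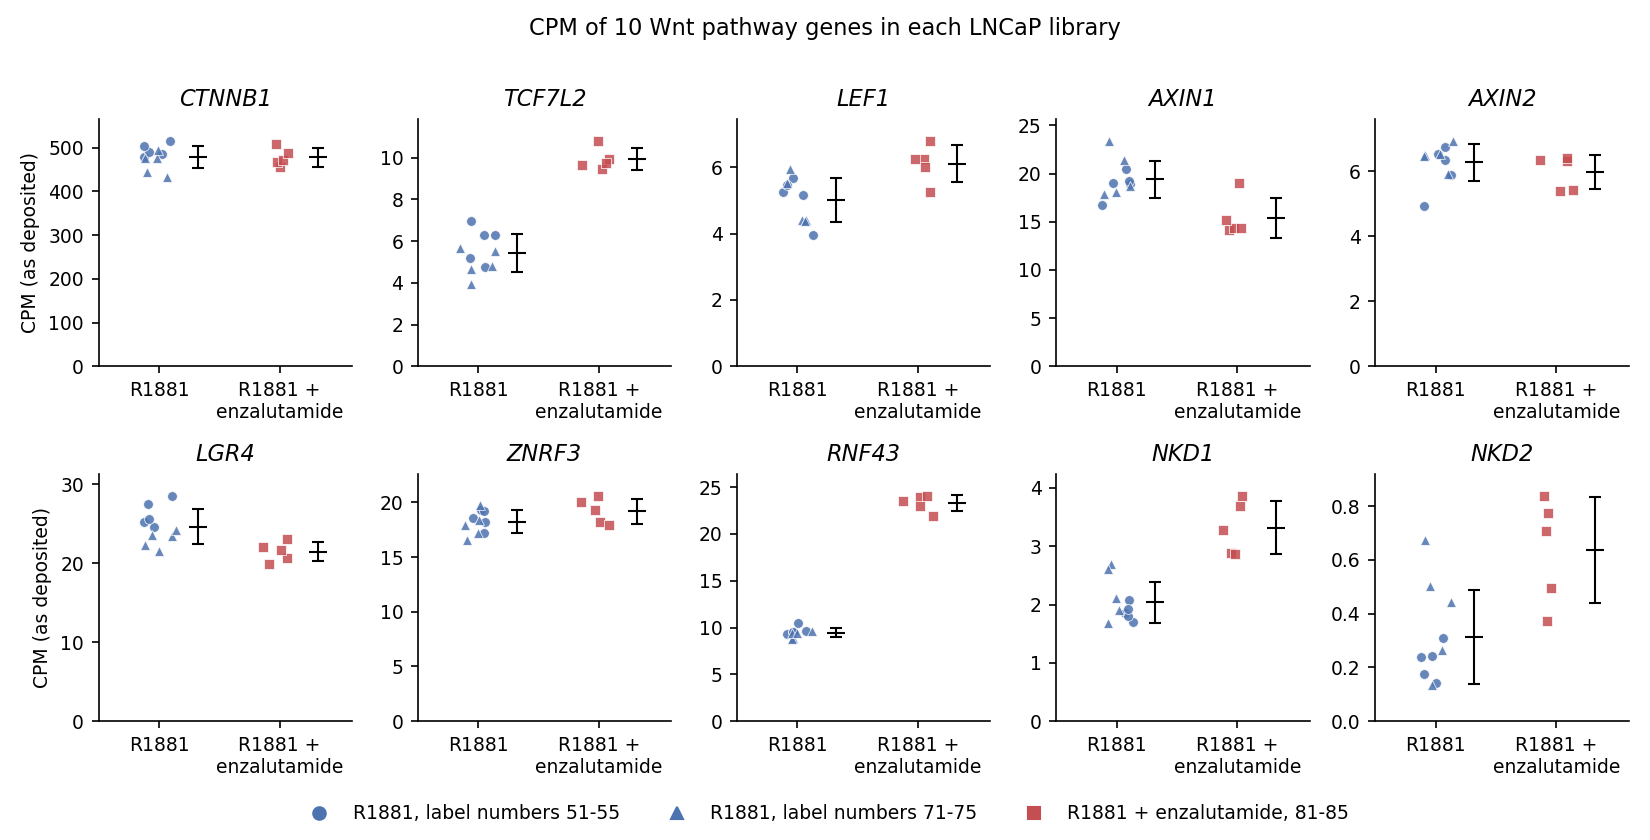
CPM of each of the 10 genes on the vertical axis, with its own scale from 0 in each panel, in R1881 libraries (circles, label numbers 51-55, and triangles, 71-75) and R1881 + enzalutamide libraries (squares), with the mean and SD beside the points. RNF43, TCF7L2 and NKD1 show no overlap between the treatments, while the 5 enzalutamide points of CTNNB1 lie inside the R1881 range of 432 to 515 CPM.

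The plot of CPM by library shows these patterns side by side. The separation is widest for RNF43, whose points with R1881 are packed within a narrow band, and both R1881 series lie together in that panel. In the panels of LGR4 and TCF7L2 most triangles sit lower than most circles, which for LGR4 brings the series 71–75 near the enzalutamide level.

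AXIN1, the constitutive scaffold of the destruction complex, lies on chr16:287440-352723 (minus strand, 11 exons). Its level with R1881 ran from 16.7 to 23.4 CPM (median 19.0 CPM), and with R1881 + enzalutamide it was 14.2, 19.1, 14.4, 14.4 and 15.2 CPM. Of the 5 enzalutamide libraries 4 were below the lowest R1881 library, and replicate 2 stood apart at a level like that of the R1881 median. The log2 fold change was -0.32 (SE 0.076, adjusted p = 0.000963), and it lay between -0.40 and -0.23 in all alternatives, each with a call. AXIN2, its feedback-induced relative and the most widely used readout of canonical Wnt signalling, lies on chr17:65528563-65561648 (minus strand, 11 exons). Its level was 4.94–6.93 CPM with R1881 (median 6.49 CPM) and 5.40, 5.44, 6.32, 6.42 and 6.35 CPM with R1881 + enzalutamide. The enzalutamide libraries all fell inside the R1881 range. The difference of -0.06 (SE 0.077, adjusted p = 0.490) had a 95% interval from -0.22 to 0.10, with 96 to 162 reads per library, and with library totals set to 1000000 it turned to 0.02. The ratio of AXIN2 to AXIN1 in a library overlapped between the treatments, at 0.241–0.405 and 0.285–0.447.

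RNF43, one of the pair of ubiquitin ligases that clear Frizzled from the membrane, carried the largest difference of the members. The gene lies on chr17:58353676-58417595 (minus strand, 10 exons). With R1881 its level ran from 8.81 to 10.5 CPM with a median of 9.47 CPM, from 140 to 217 reads per library. With R1881 + enzalutamide it was 23.6, 24.0, 21.9, 23.0 and 24.0 CPM, from 482 to 613 reads. The lowest enzalutamide library was thus far above the highest R1881 library. The means were 9.47 ± 0.458 CPM (n = 10) and 23.3 ± 0.873 CPM (n = 5), and the log2 fold change of 1.26 (SE 0.051) had a 95% interval from 1.15 to 1.36 and an adjusted p of 6.89e-15. This exceeded in size the change of 95.3% of genes, and placed RNF43 at rank 329 of 17046 genes from the highest log2 fold change. It ranged from 1.21 to 1.34 over the alternatives, and was 1.22 and 1.29 against each R1881 series alone. A long non-coding gene on the opposite strand, TSPOAP1-AS1, and a second protein-coding gene model on the same strand overlap RNF43, and reads shared with them cannot be told apart where they overlap. The same limit holds for other members, since only AXIN1 and NKD2 had no overlapping gene model. On the same strand, a protein-coding model overlaps AXIN2, a pseudogene TCF7L2, and further models ZNRF3 and NKD1. On the opposite strand, non-coding genes overlap TCF7L2, LEF1, LGR4, ZNRF3 and NKD1.

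The promoters of RNF43 and TCF7L2 are shown because these had the highest log2 fold changes of the 9 members in the fit across genes. The windows are the 250 bases before a RefSeq start on GRCh38.p14, read 5′ to 3′ on the strand of the gene, in lower case with matches in capitals. The motifs searched on both strands were CTTTG, which reads CAAAG on the other strand, the core that TCF/LEF factors bind, and AGAACA, which reads TGTTCT on the other strand, a core sequence of androgen response elements. RNF43 is shown at its RefSeq gene start (chr17:58417535-58417784, minus strand), and TCF7L2 at its gene start (chr10:112949997-112950246, plus strand) and at an inner start (chr10:113126383-113126632). The RefSeq start of RNF43 lies inside the gene as GENCODE places it (chr17:58353676-58417595). The part of its window nearest the start, with the AGAACA match, is therefore within that gene model.
RNF43: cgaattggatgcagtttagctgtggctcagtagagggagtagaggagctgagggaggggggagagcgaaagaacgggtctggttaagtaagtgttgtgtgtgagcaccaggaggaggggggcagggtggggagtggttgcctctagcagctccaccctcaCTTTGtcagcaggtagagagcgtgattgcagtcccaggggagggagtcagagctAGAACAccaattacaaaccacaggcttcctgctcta
TCF7L2: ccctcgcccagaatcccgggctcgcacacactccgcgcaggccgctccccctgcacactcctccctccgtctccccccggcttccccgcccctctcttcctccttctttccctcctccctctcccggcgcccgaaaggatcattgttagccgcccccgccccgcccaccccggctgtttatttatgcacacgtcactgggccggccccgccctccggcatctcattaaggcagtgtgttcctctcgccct
TCF7L2 inner start: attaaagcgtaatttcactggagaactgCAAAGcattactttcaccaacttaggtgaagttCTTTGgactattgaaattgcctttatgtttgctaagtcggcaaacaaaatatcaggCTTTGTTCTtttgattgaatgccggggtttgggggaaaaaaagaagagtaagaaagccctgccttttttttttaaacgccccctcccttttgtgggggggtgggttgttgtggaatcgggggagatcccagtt

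In RNF43, CTTTG began 90 bases and AGAACA 36 bases before the start. The TCF7L2 window at the gene start held neither. The inner TCF7L2 window shown held CTTTG at 189 and 133 bases and, on the other strand, at 222 bases before the start. It also held a reverse AGAACA at 130 bases that shares bases with the CTTTG at 133. TCF7L2 has another inner window (from chr10:113129021) and RNF43 an inner window (from chr17:58402722), both not shown. These held a reverse CTTTG at 114 and 134 bases and no AGAACA, so the inner TCF7L2 window shown is the one with more matches. RefSeq windows matched 7 of the 10 members, in 10 windows, of which 5 held CTTTG and 3 held AGAACA. Both motifs are short and common, since 42.1% of all 35116 promoter windows of this length held CTTTG and 12.4% held AGAACA. The matches are letters in a window and no measured binding.

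ZNRF3, the other ligase of the pair, lies on chr22:28883572-29057488 (plus strand, 9 exons). Its level was 16.6–19.7 CPM with R1881 (median 18.3 CPM) and 20.6, 18.2, 17.9, 19.3 and 20.04 CPM with R1881 + enzalutamide. Of these, 2 exceeded the R1881 range and the other 3 fell inside it. The difference of 0.07 (SE 0.052, adjusted p = 0.236) had a 95% interval from -0.04 to 0.18, far below the change of RNF43, but it was called with library totals set to 1000000 (0.16, adjusted p = 0.00712) and after removal of the GC trend (0.12, adjusted p = 0.0426). The ratio of RNF43 to ZNRF3 in CPM, not corrected for length, was 0.452 to 0.577 in R1881 libraries (median 0.525) and 1.14 to 1.32 in enzalutamide libraries (median 1.20). RNF43 thus had fewer reads than ZNRF3 in all 10 R1881 libraries and more in all 5 enzalutamide libraries, and a common scaling of a library cancels in this ratio.

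**Figure D2:**
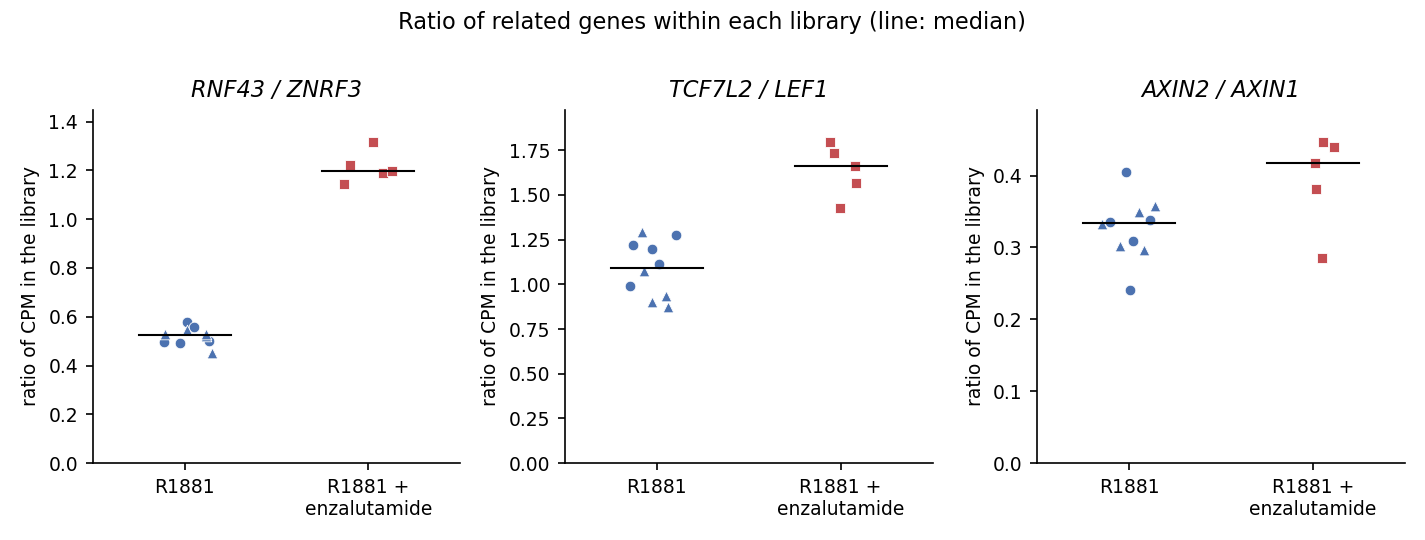
Ratio of the CPM of related genes within each library on the vertical axis, for R1881 libraries (circles, label numbers 51-55, and triangles, 71-75) and R1881 + enzalutamide libraries (squares), with a line at the median. RNF43 to ZNRF3 moves from a median of 0.525 to 1.20 and TCF7L2 to LEF1 separates by treatment, while AXIN2 to AXIN1 overlaps.

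The plot of ratios within a library gives the same comparison without the scaling of library sizes. The step of RNF43 to ZNRF3 leaves a clear gap, with no point between 0.577 and 1.14. The lowest enzalutamide point of AXIN2 to AXIN1, at 0.285, is replicate 2, in which AXIN1 was high.

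LGR4 encodes a receptor for R-spondins, which keep RNF43 and ZNRF3 away from Frizzled, and lies on chr11:27365961-27472790 (minus strand, 18 exons). Its level was 21.6–28.5 CPM with R1881 (median 24.4 CPM) and 20.7, 19.9, 21.7, 23.0 and 22.0 CPM with R1881 + enzalutamide. Of the 5 enzalutamide libraries 2 lay below the R1881 range and the other 3 in its lower part. The log2 fold change of -0.19 (SE 0.061, adjusted p = 0.00932) was lost with library totals set to 1000000 (-0.10, adjusted p = 0.138) and against the R1881 libraries 71–75 alone (-0.10, adjusted p = 0.151), whose mean of 23.0 ± 1.05 CPM (n = 5) was under that of libraries 51–55 (26.3 ± 1.66 CPM, n = 5). The difference of LGR4 between these series of the same treatment was -0.19 (adjusted p = 0.0757), as large as that between treatments. Within a library the ratio of RNF43 to LGR4 in CPM, not corrected for length, ran from 0.336 to 0.432 with R1881 and from 0.998 to 1.20 with R1881 + enzalutamide.

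NKD1 and NKD2 encode the naked cuticle proteins, which bind Dishevelled and dampen the signal. NKD1 lies on chr16:50548396-50649249 (plus strand, 10 exons). Its level was 1.69–2.70 CPM with R1881 (median 1.92 CPM, 25 to 58 reads) and 2.89, 3.86, 3.68, 3.28 and 2.86 CPM with R1881 + enzalutamide (62 to 83 reads). The groups did not overlap, although the highest R1881 library and the lowest enzalutamide library were close. The log2 fold change of NKD1 was 0.59 (SE 0.105, adjusted p = 5.01e-05), and on recovered reads edgeR gave 0.74. RNF43, TCF7L2 and NKD1 were the members without overlap, all higher, where 17.1% of all genes did so in that direction and 37.2% in either. NKD2 lies on chr5:1008802-1038943 (plus strand, 10 exons) and was at the limit of detection, with 2 to 15 reads per library with R1881 and 8 to 18 with R1881 + enzalutamide. Its level was 0.135–0.675 CPM in R1881 libraries (median 0.253 CPM) and 0.372, 0.837, 0.773, 0.494 and 0.706 CPM with R1881 + enzalutamide. Of the 5 enzalutamide libraries 3 lay above the R1881 range. With a mean of 0.421 CPM NKD2 was below the filter of the fit across genes, and a two-sided exact permutation test of log2(CPM + 0.5) over 3003 regroupings gave a difference of 0.49 (unadjusted exact p = 0.0103). At so few reads this value depends on the pseudocount, and was 0.90 with a pseudocount of 0.1 and 0.32 with 1. Against the R1881 libraries 71–75 alone the difference was 0.34 (exact p = 0.127).

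**Figure D3:**
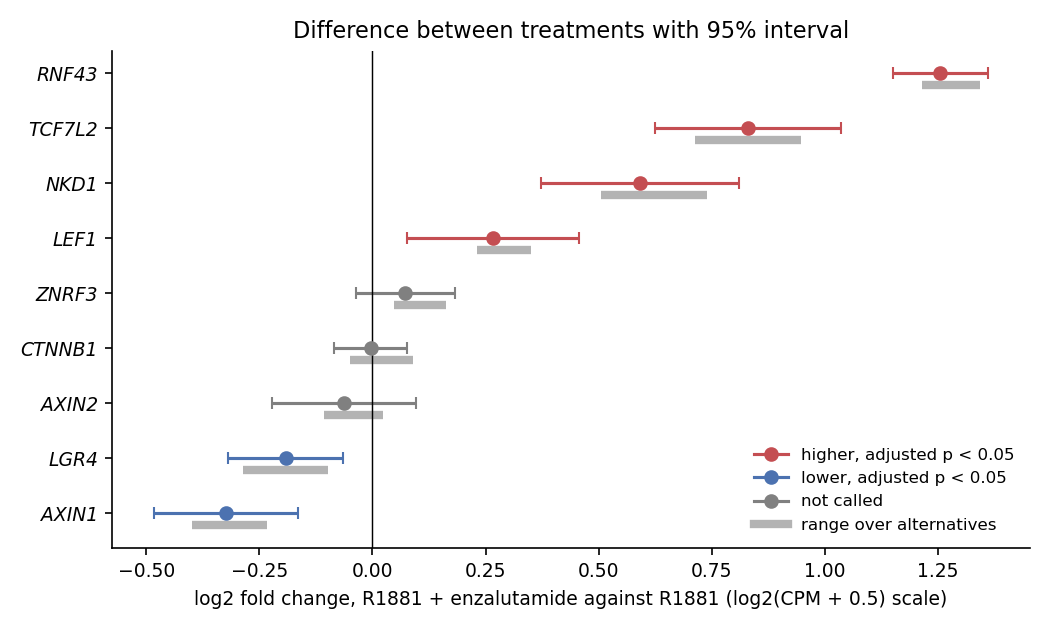
Log2 fold change of R1881 + enzalutamide against R1881 on the log2(CPM + 0.5) scale for the 9 tested members, with the 95% interval of limma (thin bars) and the range over alternative settings (grey bars). RNF43 stands highest at 1.26, and the ranges of CTNNB1 and AXIN2 span 0.

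In the plot of log2 fold changes the members fall into 3 kinds. RNF43, TCF7L2 and NKD1 keep intervals and ranges well above 0. LEF1, LGR4 and AXIN1 have intervals that exclude 0 by a smaller margin, and among these only the call of AXIN1 was kept in all alternatives. ZNRF3, CTNNB1 and AXIN2 have intervals that include 0.

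The spread within groups was not the same kind for all members. The highest AXIN1, NKD1 and NKD2 values with R1881 were those of replicates 5 and 6, and their highest enzalutamide values those of replicate 2. In these libraries genes of high GC content were read above their group mean, with a Spearman correlation of GC content and deviation across genes of 0.57, 0.74 and 0.72, a description over genes that are not independent. The canonical transcripts of AXIN1 and NKD2 are rich in GC, at 63.5% and 67.7%, against 51.5% for NKD1, 54.2% for RNF43 and 42.2% for LGR4. The part of GC content in their spread was not tested. After removal of the trend the log2 fold changes were 1.31 for RNF43, 0.85 for TCF7L2, 0.63 for NKD1, 0.30 for LEF1, -0.26 for AXIN1 and -0.16 for LGR4, all still called. Without R1881 replicates 6 and 10 and enzalutamide replicate 2, again 6 members were called, with AXIN1 at -0.37 and NKD1 at 0.57, and NKD2 differed by 0.46. This setting leaves out replicate 10, whose trend has the opposite sign (-0.63), and keeps R1881 replicate 5. The series 71–75 holds R1881 replicates 5 and 6, and NKD1 had a mean of 2.20 ± 0.442 CPM in it and 1.87 ± 0.141 CPM in the series 51–55.

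**Figure D4:**
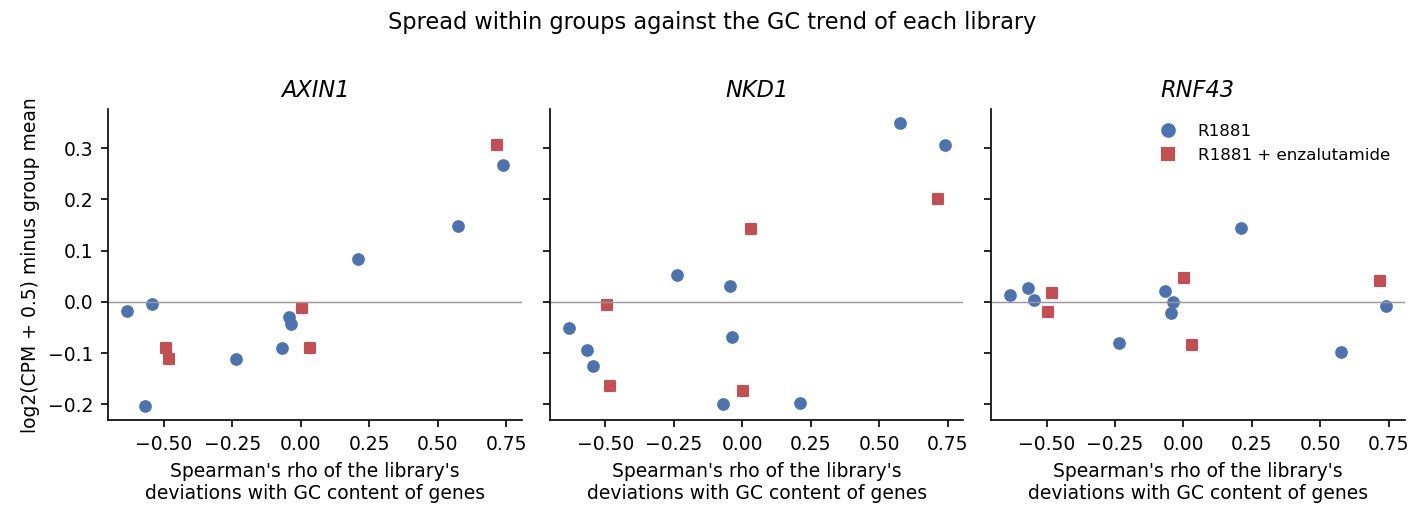
Deviation of AXIN1, NKD1 and RNF43 from the mean of their treatment group on the log2(CPM + 0.5) scale (vertical axis), against the Spearman correlation of each library's deviations with GC content across genes (horizontal axis), with R1881 as circles and R1881 + enzalutamide as squares. The 3 libraries at the right, with correlations of 0.57, 0.72 and 0.74, are the highest of their groups for AXIN1 and NKD1 but not for RNF43.

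The plot of deviations against the GC trend places AXIN1 and NKD1 beside RNF43, whose points stay near 0 along the axis. The RNF43 library farthest from its group mean is R1881 replicate 1, which has no strong trend.

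Levels can be compared between genes only per length, here as CPM per kb of the canonical transcript in GENCODE v44. With R1881 the order was CTNNB1 (131), AXIN1 (5.23), LGR4 (4.69), ZNRF3 (2.65), RNF43 (2.09), AXIN2 (1.48), LEF1 (1.40), TCF7L2 (1.33), NKD2 (0.143) and NKD1 (0.120). Neighbours that differed by less than the sum of their SDs were AXIN1 and LGR4, AXIN2, LEF1 and TCF7L2, and NKD2 and NKD1. With R1881 + enzalutamide RNF43 came directly after CTNNB1, at 5.15 CPM per kb, above AXIN1 (4.16) and LGR4 (4.09), and TCF7L2 (2.43) came above LEF1 (1.71) and AXIN2 (1.41). The value of NKD1 is uncertain, since its canonical transcript is listed with 17039 bases and a shorter transcript in these cells would raise it. In CPM without length, the spread between R1881 libraries was smallest for RNF43 (a coefficient of variation of 4.84%) and largest for NKD2 (56.1%).

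The other genes of the pathway were described by role from 7 lists of 130 genes, 81 of them in the table and all of these tested. Of these, 35 rose, 20 fell and 26 were not called. That is 67.9% called with a median log2 fold change of 0.09, against 62.5% and -0.01 over all genes. By direction, 29.8% of all genes were higher and 32.7% lower, and the counts of each list below have to be read against these shares. With library totals set to 1000000, 42 of the pathway genes rose and 17 fell. Of the ligands and their secretion factors, 7 of 10 rose and 1 fell. WNT2B rose from 0.648 ± 0.138 to 3.68 ± 0.324 CPM (log2 fold change 1.87), and WLS, the carrier that brings Wnt proteins to the surface, from 20.3 ± 1.73 to 36.2 ± 2.36 CPM (0.82). WNT7B fell from 49.3 ± 8.03 to 16.3 ± 2.22 CPM (-1.56). The summed level of the list overlapped between the groups, at 84.0–111 CPM in R1881 libraries and 84.1–89.4 CPM in enzalutamide libraries.

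Of the receptors and coreceptors, to which RNF43 and ZNRF3 are directed, 7 of 14 rose, 4 fell and 3 were not called. FZD5, a Frizzled receptor, fell from 68.9 ± 5.14 to 18.3 ± 1.28 CPM (-1.89), whereas FZD3 rose from 18.7 ± 1.43 to 46.8 ± 3.83 CPM (1.30). ROR2, a receptor of the non-canonical branch, rose from 0.415 ± 0.161 to 3.19 ± 0.370 CPM (2.03). The coreceptor LRP6 rose by 0.50 while LRP5 was not called (0.06), both named after their values were seen. Frizzled receptors thus moved in both directions in the same libraries in which RNF43 rose. Of 19 secreted and surface inhibitors only 3 had a row, of which 1 rose, 1 fell and 1 was not called. APCDD1, a membrane inhibitor of Wnt receptors, rose from 2.81 ± 0.498 to 7.92 ± 1.16 CPM (1.35). KREMEN2, a receptor for the Dickkopf inhibitors, fell from 0.991 ± 0.349 to 0.344 ± 0.0547 CPM (-0.79), and KREMEN1 was not called (-0.00), both named after their values were seen.

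Of the destruction complex and cytoplasmic transducers 7 of 20 rose, 4 fell and 9 were not called, with a median of 0.02. CSNK1A1, the casein kinase that primes beta-catenin for degradation, fell from 198 ± 9.12 to 137 ± 4.85 CPM (-0.53), and CSNK1G3, a casein kinase of the gamma group, from 73.5 ± 5.13 to 53.9 ± 2.76 CPM (-0.44). TNKS2, a tankyrase that marks axin for degradation, rose from 94.9 ± 6.82 to 130 ± 7.67 CPM (0.45). Of the nuclear partners of beta-catenin 9 of 18 rose and 3 fell. The largest changes of this list were in genes of corepressors, with TLE3 at 62.7 ± 5.13 and 141 ± 4.40 CPM (1.16), TLE1 at 14.3 ± 1.12 and 30.8 ± 1.17 CPM (1.08) and CTBP1 at 38.7 ± 4.71 and 75.1 ± 7.67 CPM (0.95). Among other corepressors of the list, TLE2 rose by 0.33 (adjusted p = 0.0380). CTBP2 (-0.04) and TLE5, listed as AES (0.10), were not called. TLE2, CTBP2 and TLE5 were named after their values were seen.

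Among the junction partners, which bind beta-catenin or its complex at the membrane, CTNNA2 went from 9.02 ± 1.40 CPM with R1881 to 3, 5, 2, 3 and 0 reads per library with R1881 + enzalutamide, at most 0.233 CPM. CTNNA1, the alpha-catenin of epithelia, fell by 0.26, from 564 ± 18.2 to 471 ± 8.03 CPM, and CTNND1 (p120 catenin) rose by 0.17, from 427 ± 14.4 to 479.7 ± 18.2 CPM. CDH1, E-cadherin, was at 809 ± 33.3 and 827 ± 28.2 CPM and was not called (0.03, adjusted p = 0.434). Of 11 other reported beta-catenin targets 3 rose, 5 fell and 3 were not called, with a median of -0.08. MYC rose from 107 ± 10.96 to 136 ± 8.88 CPM (0.36) and BAMBI, a pseudoreceptor of the TGF-beta family, from 19.9 ± 2.59 to 36.2 ± 1.498 CPM (0.86). CCND1, cyclin D1, fell from 275 ± 7.17 to 247 ± 8.51 CPM (-0.16), VEGFA, a growth factor for vessels, from 128 ± 7.97 to 68.1 ± 2.07 CPM (-0.91), and TNFRSF19, a receptor of the TNF family, from 165 ± 8.25 to 61.0 ± 3.90 CPM (-1.43). The target genes on this list therefore moved in both directions.

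**Figure D5:**
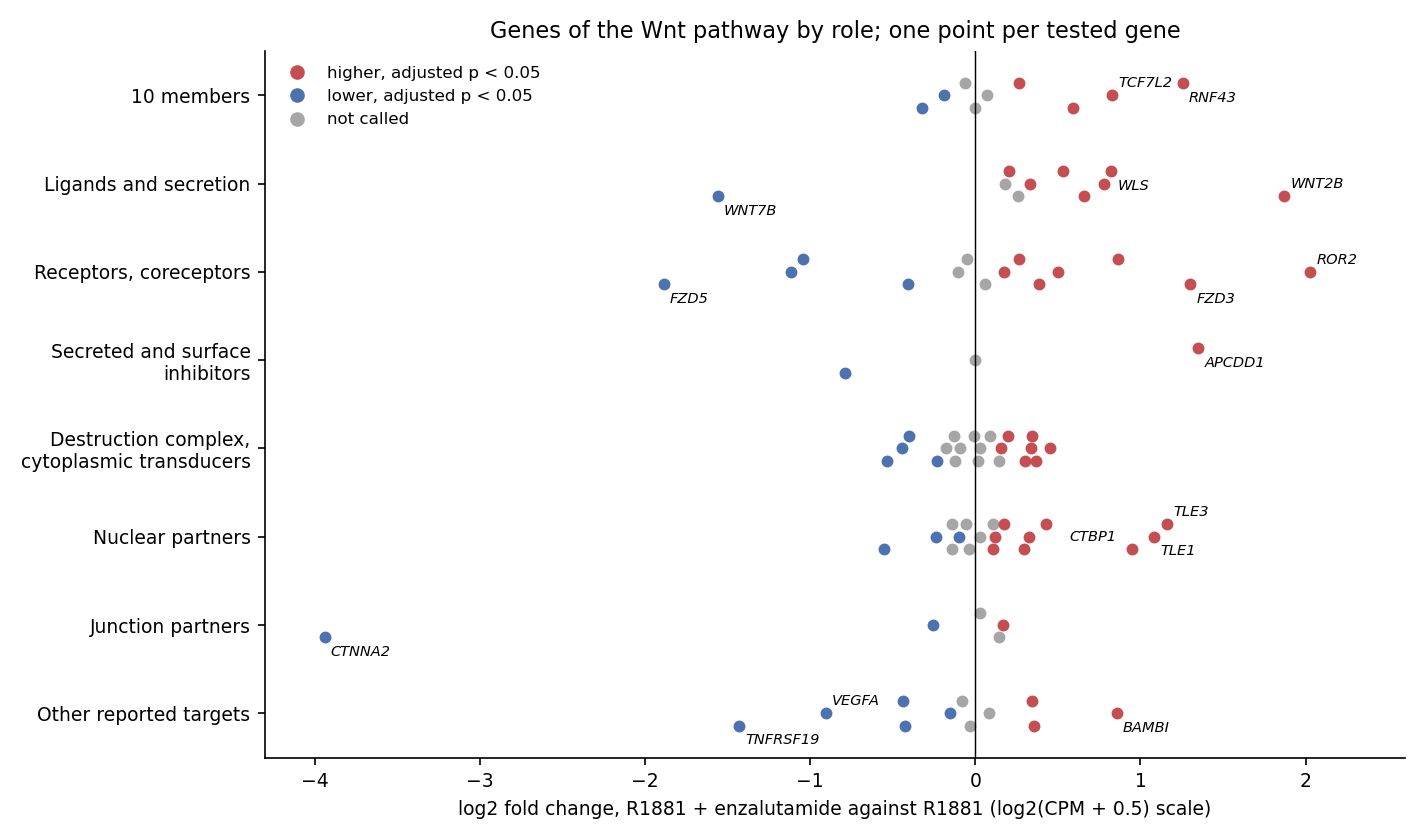
Log2 fold change of R1881 + enzalutamide against R1881 (horizontal axis, log2(CPM + 0.5) scale) for the tested members and the 7 lists of pathway genes by role, 1 point for each gene, red for higher, blue for lower and grey for not called at an adjusted p under 0.05. Points lie on both sides of 0 in all lists, and the fitted value of CTNNA2 depends on the pseudocount because its enzalutamide libraries hold 0 to 5 reads.

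The plot of pathway genes by role has ROR2 and WNT2B farthest at the right, and CTNNA2, FZD5 and WNT7B farthest at the left. The destruction complex and the cytoplasmic transducers lie between -0.53 and 0.45. Genes closest to a member over the 15 libraries were sought among 12164 genes by the root mean square difference in log2(CPM + 0.5). Each gene was taken relative to its R1881 mean, so the step between treatments is part of the measure and genes of like log2 fold change are favoured. For RNF43 they were TIMP2 (0.070), ABCG1 (0.076) and PMS2 (0.079), with log2 fold changes of 1.22, 1.29 and 1.27. For AXIN1 they were RNPS1P1 (0.058), CNOT3 (0.060) and SCAMP3 (0.064), with log2 fold changes of -0.31, -0.36 and -0.33.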

How the data were processed

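Polyadenylated RNA was sequenced as single-end reads, which the authors aligned to GRCh38 with STAR and assigned to genes with featureCounts. For annotation, strand setting, gene filter and scaling rule, the sources used here give nothing. The authors deposited a normalized signal, called CPM, for 17272 genes. Its sums per library were 1053406 to 1078567 with R1881 and 985580 to 1008992 with R1881 + enzalutamide, without overlap. All values (100%) were whole multiples of 1 read within 0.01 reads, so reads were recovered. The methods text gives the group sizes the other way round, and the labels were followed. Tests used limma 3.58.1 on log2(CPM + 0.5) with a mean CPM of at least 0.5, two-sided, with Benjamini-Hochberg adjustment over 17046 genes and a threshold of 0.05. This design, planned for plain CPM, was kept, with edgeR 4.0.16 and DESeq2 1.42.0 on recovered reads as alternatives. On simulated reads for this comparison the test over 17046 genes called 98.5% of 200 genes with a 2-fold change and 8 unchanged genes. The simulation had a single fixed dispersion, no GC or series trend and few changed genes, so these rates need not hold for the data. The alternatives covered pseudocount, filter, scaling, test, a replicate block, each R1881 series and each library left out. All 55 pairs of libraries of the same group differed beyond sampling noise (chi-square per degree of freedom at least 1.64). GC settings were added after the data were seen.

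The members and lists were chosen with earlier results of these data known. Named genes are the members, up to 3 called genes with the largest change in each list (mean CPM of at least 1), MYC, CCND1, CDH1, the 4 androgen-induced genes and the genes most like 2 members (mean CPM of at least 5). Not everything named by this rule is reported here. Outside it, KRT8, KRT18, VWF and the genes marked in the text were named after their values were seen. Positions and lengths are from GENCODE v44, and promoter sequences from RefSeq. The number of libraries limits precision, and for NKD2 so do few reads.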

Additional observations from a re-analysis of the deposited data

Results flagged for a closer look

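Of 58 groups of values 3 held a library far from the others of its treatment by the gap of the extreme value relative to the range, where chance gives 2.9. AXIN1 was at 19.1 CPM in enzalutamide replicate 2, against 14.2–15.2 CPM in the other 4 libraries, and without this library its log2 fold change was -0.40. AXIN2 was at 4.94 CPM in R1881 replicate 1, the lowest, against 5.89–6.93 CPM. RNF43 was at 10.5 CPM in R1881 replicate 1, the highest, against 8.81–9.64 CPM, still below every enzalutamide library.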

How the results depend on the processing

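RNF43, TCF7L2, NKD1 and AXIN1 kept direction and call in all 28 alternatives each, between 1.21 and 1.34, 0.71 and 0.95, 0.50 and 0.74, and -0.40 and -0.23. When single libraries were left out, 5 to 6 members, 51 to 57 pathway genes and 10071 to 10877 genes were called, and 56 to 969 genes between the R1881 series. A 2-fold threshold left 1270 genes, 1 member and 12 pathway genes. With library totals set to 1000000 the split was 6629 higher to 4288 lower (60.7% higher) against 5083 to 5577 (47.7%), and 7 members were called, 6 higher and 1 lower. CTNNB1 changed sign with totals at 1000000 (0.0897), TMM (0.0396), median-ratio factors (0.0095), edgeR (0.0394), DESeq2 (0.0092), R1881 libraries 71–75 alone (0.0413), removal of the GC trend (0.0180) and without the 3 libraries of strongest GC trend (0.0038), and ranged from -0.0267 to 0.0135 with libraries left out. AXIN2 turned to 0.0232 with totals at 1000000. NKD2 missed the threshold against libraries 71–75 alone (0.34). The causes were not tested. With the replicate number as a block, CTNNB1 was 0.0044, LEF1 0.24 (adjusted p = 0.0751), LGR4 -0.12 (adjusted p = 0.0999), 4 members, 52 pathway genes and 10043 genes were called. Libraries with the same replicate number correlated at -0.11 to 0.13, none best with its own number, so these numbers showed no pairing. Pairing by the label numbers was not tested.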
